A study of Rattus norvegicus with 6 samples.

Results

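The neutrophil alarmin transcripts S100a8, S100a9 and Lcn2 were followed in the femur of Wistar rats kept as controls or put through chronic sleep deprivation (CSD). The genes were taken by Ensembl ID (ENSRNOG00000011557 for S100a8, ENSRNOG00000011483 for S100a9 and ENSRNOG00000013973 for Lcn2), and all 3 were among the 32545 gene rows of the count table and all passed the filter on low counts, which kept 13431 genes. The RefSeq gene table for rat lists all 3 symbols but pairs none of these IDs with a symbol, so the pairs rest on the gene choice alone and were neither contradicted nor checked further. The study asked how CSD changes gene expression in growing bone, and sequenced polyadenylated RNA of 6 femur libraries, 3 per group. No genetic change or other agent is named for either group. The controls carry labelled ages of 12, 13 and 14 weeks and the CSD libraries 15, 16 and 17 weeks, while the series description gives 12 weeks for all, so an effect of CSD and one of labelled age cannot be told apart. Neither separate animals for the libraries of a group nor the removal of marrow is stated in the sources used here. The p-values therefore measure the spread between these libraries only, which may be technical.

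S100a8 and S100a9 are small calcium-binding proteins that pair into calprotectin, the main protein of neutrophil cytosol, which withholds zinc and manganese from microbes. Released from activated or dying cells, the pair acts as an alarmin, a danger signal read by the receptors Tlr4 and Ager. Lcn2, lipocalin 2 or NGAL, is stored in the secondary granules of neutrophils and binds the iron carriers of bacteria. It is also made outside neutrophils, by inflamed epithelia and by osteoblasts. Marrow is where neutrophils are formed, so a femur that keeps its marrow is rich in these transcripts. In whole tissue, fewer cells of a type and less RNA per cell cannot be told apart.

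The promoters of S100a9 and Lcn2 are shown because these genes were followed side by side in the same libraries. RefSeq's promoter table (build GRCr8, not the rn6 build named for the counts) held an entry for 2 of the 3 genes, S100a9 and Lcn2, and not for S100a8. The 250 bases before the annotated start are written 5′ to 3′ on the gene's strand, from chr2:178490623-178490872 (minus strand) for S100a9 and chr3:36081781-36082030 (minus strand) for Lcn2. Capitals mark matches on either strand to TATAAA (the TATA box), TTGCNNAA (C/EBP, a myeloid factor family), GAGGAA (PU.1, a myeloid factor) and the NF-kB consensus (an inflammatory factor). The NF-kB consensus was searched in a loose form, GGRNNNYYCC. R stands for A or G, Y for C or T and N for any base.
S100a9: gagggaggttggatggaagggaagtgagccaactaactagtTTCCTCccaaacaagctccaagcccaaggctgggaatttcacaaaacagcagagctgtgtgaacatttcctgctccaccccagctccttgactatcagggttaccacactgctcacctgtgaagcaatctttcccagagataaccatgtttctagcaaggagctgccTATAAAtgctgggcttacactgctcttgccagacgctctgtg
Lcn2: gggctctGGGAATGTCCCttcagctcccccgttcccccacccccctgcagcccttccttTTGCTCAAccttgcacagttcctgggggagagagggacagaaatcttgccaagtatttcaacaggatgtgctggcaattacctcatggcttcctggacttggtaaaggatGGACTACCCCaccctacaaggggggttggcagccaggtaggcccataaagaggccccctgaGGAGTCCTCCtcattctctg
S100a9 held TATAAA, its first base 42 bases before the start, and 1 match to GAGGAA on the reverse strand, beginning 209 bases before the start. TATAAA was found in 12.9% and GAGGAA in 23.3% of the 33469 promoter windows of the same length. Lcn2 held TTGCNNAA, beginning 191 bases before the start, and 4 matches to the NF-kB consensus beginning 243, 242, 81 and 20 bases before it. The matches at 243 and 242 overlap, on opposite strands. TTGCNNAA occurred in 9.22% of all windows and the NF-kB consensus in 22.5%. The windows of the 2 genes shared none of these motifs. A match describes the letters and shows no binding.

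All 3 transcripts were abundant in every library, and each had a higher mean in CSD than in controls, by 1.29-fold to 1.40-fold. None passed the threshold. By edgeR's quasi-likelihood test 0 of the 3 genes had an adjusted p under 0.05, beside 0 of all 13431 tested genes (0%). At an unadjusted p under 0.05 there was 1 of 3, Lcn2, beside 12.5% of tested genes in either direction and 6.11% with higher levels in CSD. The CSD libraries lay above every control for Lcn2 alone of the 3, an arrangement seen in 8.77% of tested genes. The median log2 fold change was 0.39 over the 3 genes and 0.00 over all tested genes. Lcn2 had an adjusted p of 0.0976 with DESeq2 on all genes. That fit called 297 genes (1.96%), 1.38% of genes with higher levels in CSD, and none of the 3 neutrophil genes, while limma-voom called 0 genes.

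Libraries held 8366443 to 9572898 reads in genes, so counting error was small for these genes. Reads counted for a gene made up 36.2% to 36.7% of a control library and 37.1% to 38.2% of a CSD library. The TMM scaling factors, which make libraries with different composition comparable, were 1.02 to 1.07 in controls and 0.912 to 1.00 in CSD. Both measures separate the groups, and the part of the former in the results below was not tested. Markers of bone, marrow and other cell types are left out, since no table at hand paired the IDs with symbols.

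S100a8, the subunit that is stable mainly in its pair with S100a9, had 39882, 34579 and 31035 reads in controls 1, 2 and 3. It had 41311, 53756 and 35462 reads in CSD 1, 2 and 3. Control 1 and CSD 2 were the highest libraries of their groups. Scaled to CPM, the usual depth-adjusted count, with the TMM factors, these were 4478, 3664 and 3400 CPM in controls and 4814, 6166 and 4176 CPM in CSD. The groups overlapped, since CSD 3 lay below control 1. CSD libraries averaged 5052 ± 1016 CPM and controls 3847 ± 562 CPM (SD, n = 3). The log2 fold change was 0.39 (SE 0.20), a 1.31-fold difference with a 95% interval of 0.957-fold to 1.80-fold (edgeR quasi-likelihood test, adjusted p = 0.441). Without CSD 2 the log2 fold change was 0.22 (edgeR, adjusted p = 0.875).

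S100a9, the partner subunit, was among the 14 most abundant gene rows by reads in each of the 6 libraries. It had 52773, 46930 and 38802 reads in controls 1, 2 and 3, and 57041, 66051 and 44863 in CSD 1, 2 and 3. CSD 2 was the highest library and control 3 the lowest, as for S100a8. Scaled values were 5925, 4973 and 4251 CPM in controls and 6646, 7577 and 5283 CPM in CSD. On this scale all 6 libraries stood in the same order as for S100a8, whereas by reads control 2 and CSD 3 changed places. CSD 3 again lay below control 1, so the groups overlapped. CSD libraries averaged 6502 ± 1154 CPM and controls 5050 ± 840.0 CPM (SD, n = 3). The log2 fold change was 0.36 (SE 0.20). The difference was 1.29-fold with a 95% interval of 0.934-fold to 1.78-fold (edgeR quasi-likelihood test, adjusted p = 0.476). Without CSD 2 the log2 fold change of S100a9 was 0.23 (edgeR, adjusted p = 0.876).

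Lcn2, the granule protein that binds siderophores, had 6849, 7102 and 6063 reads in controls 1, 2 and 3. In CSD 1, 2 and 3 it had 7375, 10479 and 8396 reads. These corresponded to 769, 753 and 664 CPM in controls and to 859, 1202 and 989 CPM in CSD. The groups did not overlap, and the gap between the lowest CSD library and the highest control was smaller than the range within CSD. CSD libraries averaged 1017 ± 173 CPM and controls 729 ± 56.4 CPM (SD, n = 3). The log2 fold change was 0.48 (SE 0.16), a 1.40-fold difference with a 95% interval of 1.08-fold to 1.80-fold (edgeR quasi-likelihood test, adjusted p = 0.324). Lcn2 varied less than the S100 pair among controls, with a coefficient of variation of 7.74% against 14.6% for S100a8 and 16.6% for S100a9. Among CSD libraries the coefficients were 17.0%, 20.1% and 17.7% in the same order of genes, and none of these differences in spread was tested.

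**Figure D1:**
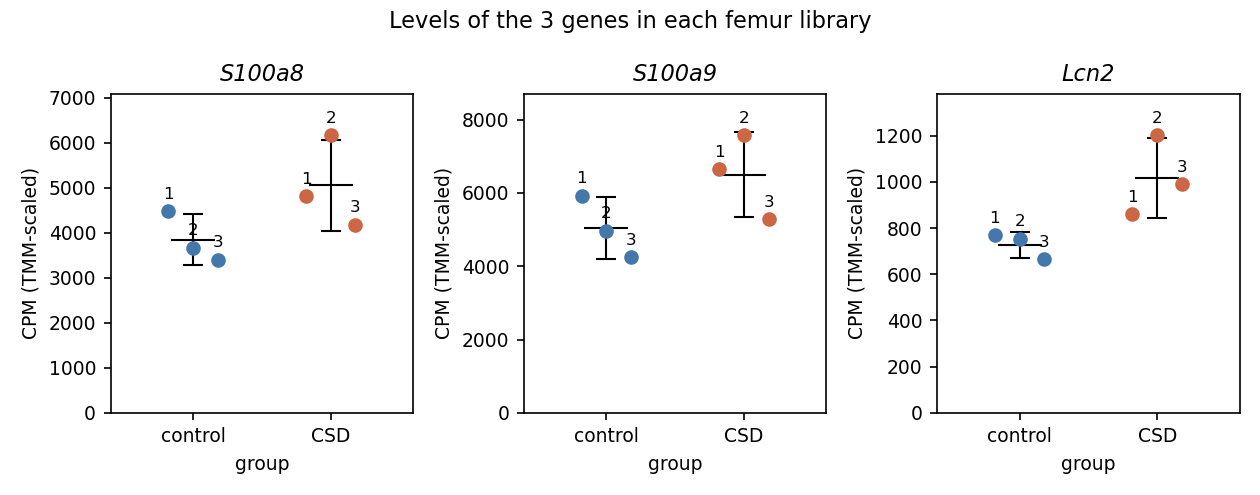
TMM-scaled CPM (vertical axes, from 0) of S100a8, S100a9 and Lcn2 in the 3 control and 3 CSD libraries, each point a library with its replicate number, with the group mean and SD as a bar and whiskers. CSD 2 is the highest library in each panel, CSD 3 lies below control 1 for both S100 genes, and the groups are apart for Lcn2 alone.

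As a share of all reads in genes, taken here as a sign of marrow and free of any scaling factor, the 3 transcripts together took 1.19%, 0.959% and 0.874% in controls 1, 2 and 3. They took 1.23%, 1.36% and 0.993% in CSD 1, 2 and 3. Wilson 95% intervals were narrow, for example 1.18% to 1.20% in control 1 and 1.35% to 1.37% in CSD 2, and cover counting error only. CSD 3 fell between controls 1 and 2, and the groups overlapped. The CSD libraries averaged 1.20% ± 0.187 and the controls 1.01% ± 0.163 (SD, n = 3), a ratio of 1.19 (exact two-sided permutation test, p = 0.2, and 0.4 after Benjamini-Hochberg adjustment over the 6 shares and ratios tested). The smallest p this test allows with 3 libraries per group is 0.1. The difference of 0.188 percentage points was 0.105 without CSD 2, 0.121 without control 3 and 0.289 without CSD 3.

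S100a9 contributed most of that sum, with 0.447% to 0.631% of gene counts in controls and 0.502% to 0.690% in CSD. S100a8 took 0.357% to 0.477% and 0.397% to 0.562%. The ranges of the groups overlapped for both subunits (exact permutation tests, p = 0.2 for S100a8 and 0.3 for S100a9, adjusted 0.4 and 0.45). Lcn2 took 0.0698% to 0.0819% in controls and 0.0860% to 0.109% in CSD, without overlap (exact permutation test, p = 0.1, the smallest possible, adjusted 0.4). How many of all genes had CSD above every control on the scale of shares was not counted. On TMM-scaled CPM these were 8.77% of tested genes and 22.0% of those with a mean of at least 500 CPM. Larger transcripts give more reads, so these shares do not order the 3 genes by number of molecules. By mean CPM the ranks among the 13431 tested genes were 10 for S100a9, 15 for S100a8 and 96 for Lcn2.

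The spread between libraries of a group far exceeded counting error. The chi-square per degree of freedom of the counts within a group, which is near 1 where libraries differ by sampling alone, was 886 in controls and 1298 in CSD for S100a8. For S100a9 it was 1418 and 1517. Lcn2, with fewer reads, had 41.2 and 135. The highest library of a group had 1.16 to 1.48 times the CPM of the lowest.

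The subunits of calprotectin kept a nearly constant ratio. Reads of S100a8 per read of S100a9 numbered 0.756, 0.737 and 0.800 in controls 1, 2 and 3 and 0.724, 0.814 and 0.790 in CSD 1, 2 and 3. CSD 1 was the lowest and CSD 2 the highest, so the CSD libraries spanned all controls. On the log2 scale the CSD libraries averaged -0.37 ± 0.09 and the controls -0.39 ± 0.06 (SD, n = 3), with p = 0.8 by an exact permutation test (adjusted 0.8). The size of the ratio reflects transcript length as well as abundance, and only its variation between libraries can be read.

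The ratio of Lcn2 to the S100 pair ran over a wider range. There were 7.39, 8.71 and 8.68 reads of Lcn2 per 100 reads of S100a8 and S100a9 in controls 1, 2 and 3, and 7.50, 8.75 and 10.5 in CSD 1, 2 and 3. CSD 3 had the highest value, with the lowest S100 levels of its group and an Lcn2 level above every control. Control 1 and CSD 1 had the lowest values of their groups. The log2 ratio averaged -3.50 ± 0.24 in CSD libraries and -3.60 ± 0.14 in controls (SD, n = 3), with p = 0.4 by an exact permutation test (adjusted 0.48). Neither ratio differed between the groups by more than the spread within them.

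**Figure D2:**
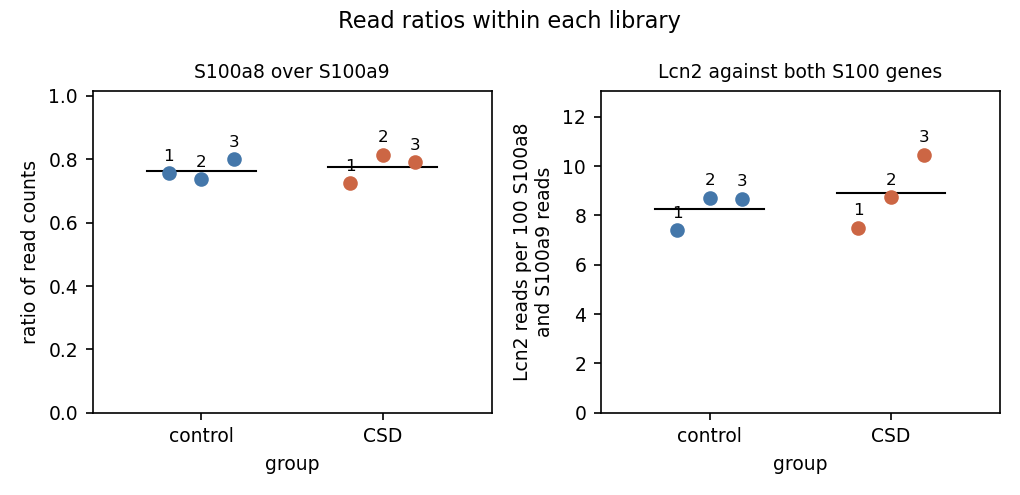
Reads of S100a8 per read of S100a9 (left) and reads of Lcn2 per 100 reads of both S100 genes (right), from 0, by group; each point is a library with its replicate number and each line a group mean. The S100 ratio stays between 0.724 and 0.814 in all 6 libraries, while Lcn2 runs from 7.39 in control 1 to 10.5 in CSD 3.

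Across the 6 libraries, S100a8 and S100a9 ran closely together on the log2 CPM scale. Pearson's r was 0.97 and Spearman's rho 1.00 (exact permutation tests, p = 0.00278 for each, 0.00833 after adjustment over the 3 gene pairs). Without control 3 and CSD 2, the libraries farthest from the median of either gene, r was 0.96. S100a8 and Lcn2 had an r of 0.86 and a rho of 0.83 (exact permutation tests, p = 0.0444 and 0.0583, adjusted 0.0639 and 0.0583). S100a9 and Lcn2 had an r of 0.78 and a rho of 0.83 (exact permutation tests, p = 0.0639 and 0.0583, unchanged after adjustment). Without control 3 and CSD 2 the r of these 2 pairs fell to 0.27 and 0.05. Leaving out the libraries farthest from the S100 medians narrows the range, which can by itself lower r. Whether the relation of Lcn2 to the S100 pair rests on those libraries was therefore not settled. The values of all genes in a library share its scaling factor, and both groups enter each correlation.

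Genes with the same pattern were sought among the 9532 other genes with a mean of at least 10 CPM, by mean Pearson r with the 3 genes over the 6 libraries. The nearest was ENSRNOG00000012881, with a mean r of 0.95. It had 370, 268 and 221 CPM in controls 1, 2 and 3 and 395, 621 and 371 CPM in CSD 1, 2 and 3. CSD 2 was its highest library and control 3 its lowest, as for the 3 neutrophil genes, a likeness that follows from how it was chosen. Its log2 fold change was 0.69 (SE 0.25; edgeR, adjusted p = 0.350). The next was ENSRNOG00000017843, with a mean r of 0.95 and a narrower range of 25.9 CPM in control 3 to 35.7 CPM in CSD 2. The log2 fold change of this second gene was 0.20 (SE 0.13, edgeR, adjusted p = 0.558). A mean r above 0.9 was reached by 62 genes and one below -0.9 by 34. The files pair none of these IDs with a name.

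With TMM factors most abundant genes had higher levels in CSD, and the 3 neutrophil transcripts belong to that class. Of the 211 other genes with a mean of at least 500 CPM, a limit chosen after the data were seen, 172 had a log2 fold change above 0 and their median was 0.18, against 0.00 for all tested genes. Each of the 3 genes lay above this median, at 0.39 for S100a8, 0.36 for S100a9 and 0.48 for Lcn2. Of the 214 genes with a mean of at least 500 CPM, the 3 included, 55 had a log2 fold change above that of S100a9. Above that of Lcn2 there were 23. Among all 13431 tested genes the numbers were 1517 for S100a9 and 964 for Lcn2. The CSD libraries lay above every control for 47 of the 214 (22.0%), against 8.77% of all tested genes. With library totals in place of TMM factors the median of all tested genes moved to -0.13 and that of the 211 abundant genes to 0.04, with 130 of them above 0, and the 3 genes stood at 0.25, 0.23 and 0.34. With factors taken from the 211 abundant genes the median of all genes moved to -0.19 and 102 of the 211 lay above 0 (median -0.01), these genes having set the scale. The 3 genes then stood at 0.19, 0.17 and 0.28 (edgeR, adjusted p = 0.565, 0.630 and 0.315). The direction of the 3 genes was the same under each scaling, and under this last one their differences were 1.74 to 2.13 times smaller on the log2 scale.

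**Figure D3:**
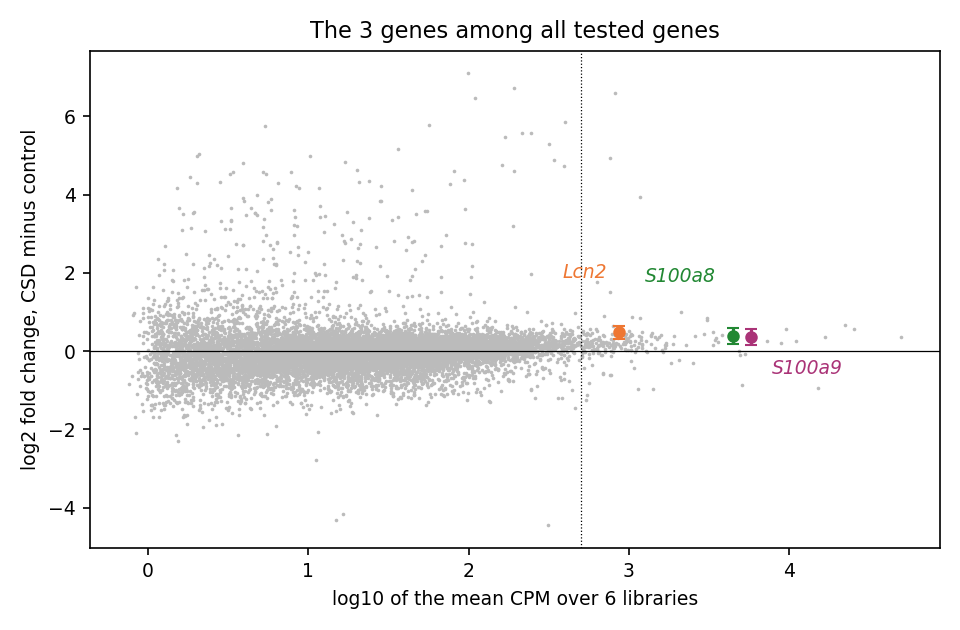
Log2 fold change of CSD minus control against log10 mean CPM for 13431 tested genes (grey points), with S100a8, S100a9 and Lcn2 in colour and their SE as whiskers; the dotted line marks 500 CPM. The 3 genes sit at 0.36 to 0.48 among the most abundant genes, most of which lie above 0.

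No single choice gave a call for any of the 3 genes. Over the 17 alternatives the log2 fold change ran from 0.19 to 0.52 for S100a8, from 0.17 to 0.50 for S100a9 and from 0.28 to 0.58 for Lcn2. Lcn2 had an unadjusted p under 0.05 in 14 of 17 alternatives, and S100a8 and S100a9 in 2 each, both fits with DESeq2. On all genes DESeq2 gave such a p with higher levels in CSD to 4.5% of genes. The edgeR fit with TMM factors and all 6 libraries gave it to 12.5% of tested genes, and to 6.11% with higher levels in CSD. This share was not counted under the other alternatives. All alternatives refit all or most of the same 6 libraries, so they are not independent. The lowest adjusted p reached was 0.0947 for Lcn2, 0.321 for S100a8 and 0.364 for S100a9.

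**Figure D4:**
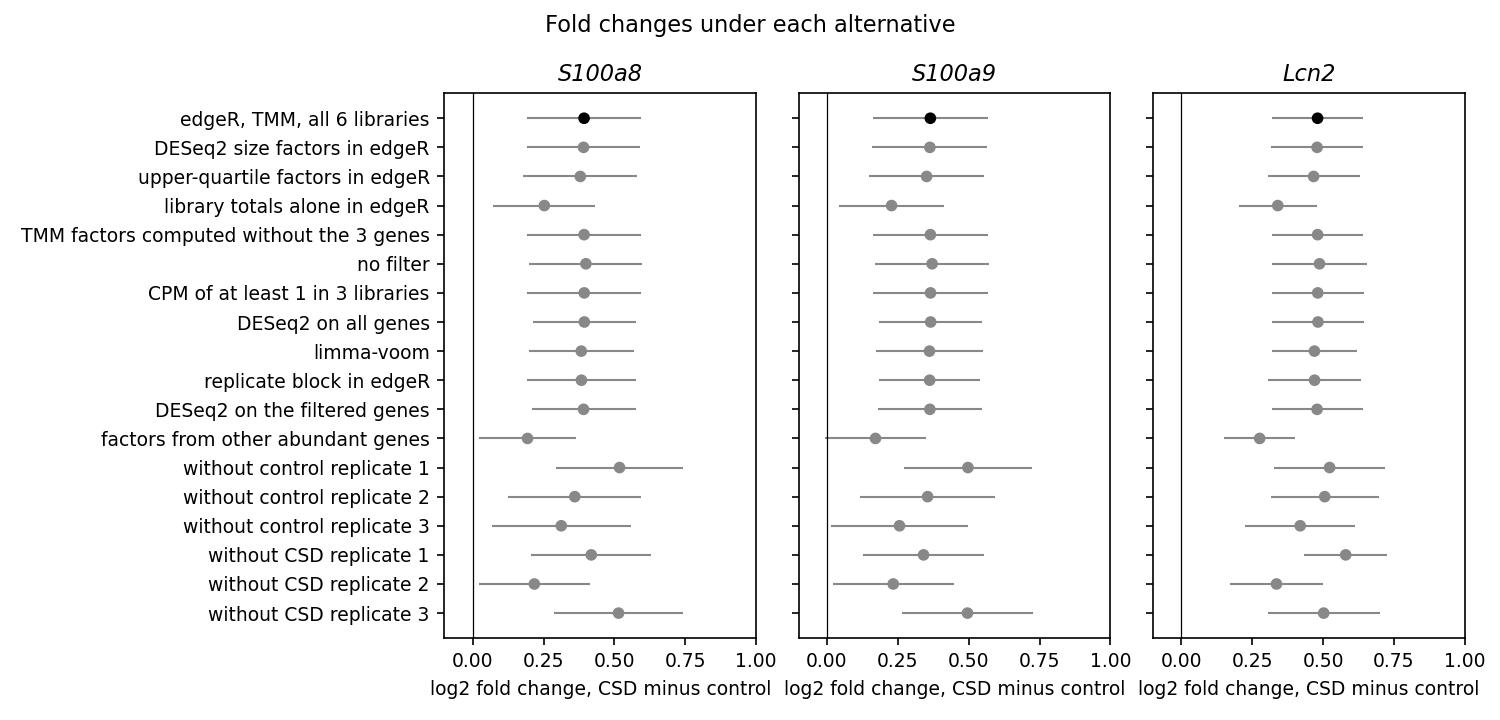
Log2 fold change of CSD minus control (horizontal axes) for each gene with edgeR, TMM factors and all 6 libraries (black) and under 17 alternatives (grey); whiskers are SE. All points lie above 0, and leaving out CSD 2, library totals and factors from other abundant genes give the lowest values.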

How the data were processed

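Femur RNA of 6 Wistar rat libraries (3 controls, 3 CSD, grouped by sample title) was analysed from 1 deposited table of raw counts, reads per gene in each library. HISAT2 2.2.1, HTSeq 0.12.4 and rn6 are named in the submitters' processing notes. What each did, the annotation release and any use of strand are not given in the sources. Whether reads of genes that overlap on opposite strands were separated is therefore not known. The 5 closing rows that name no gene held the reads not counted for a gene (61.8% to 63.8% of a library) and were left out of library sizes and tests.

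Genes were filtered with filterByExpr and scaled by TMM; CSD was compared with control by the quasi-likelihood test of edgeR 4.0.16 (R 4.3.3, two-sided, no covariate, prior count 0.125), with Benjamini-Hochberg adjustment over all 13431 genes at 0.05. The SE is the absolute log2 fold change over the square root of F. Shares, ratios and correlations (log2 CPM, prior count 2) were tested by exact permutation (scipy 1.17.1). DESeq2 1.42.0, limma 3.58.1, other scalings and filters, a replicate block and leaving out each library were alternatives. The fits were tested on simulated data with planted differences larger than those of the 3 genes, so differences of their size were not covered. The 3 genes and lists were chosen with earlier results of these data known. The text names the 3 genes and the 2 genes most alike by mean r; planned lists of granule, receptor and cell type genes were not used, as no table paired IDs with symbols.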

Additional observations from a re-analysis of the deposited data

How the results depend on the processing

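The 3 gene tests kept their direction and stayed above an adjusted p of 0.05 in all 51 comparisons under alternatives. DESeq2 on the filtered genes and factors from abundant genes were added after the data were seen. Whether replicate numbers pair the libraries was not settled. Correlations of deviations between same-numbered libraries were -0.01, -0.06 and 0.17, and differently numbered libraries were not compared. With the replicate block the log2 fold changes were 0.38 for S100a8, 0.36 for S100a9 and 0.47 for Lcn2 (edgeR, adjusted p = 0.486, 0.482 and 0.357). Leaving out 1 library gave 0.22 to 0.52 for S100a8, 0.23 to 0.50 for S100a9 and 0.34 to 0.58 for Lcn2. Over all tested genes, the 0 calls of edgeR became 112 with no filter, 297 with DESeq2 on all genes, 278 with DESeq2 on the filtered genes, 104 with the replicate block and 0 to 230 with 1 library left out (151 without control 1, 230 without CSD 1, 73 without CSD 3); the cause was not tested. The share differences kept their sign in each alternative run, but with 1 library left out their size, in percentage points, ran from 0.105 (without CSD 2) to 0.289 (without CSD 3) for the sum, against 0.188 with all libraries. For S100a8 it ran from 0.0365 (without CSD 2) to 0.119 (without CSD 3) against 0.0772, for S100a9 from 0.0496 (without control 3) to 0.149 (without CSD 3) against 0.0905, and for Lcn2 from 0.0138 (without CSD 2) to 0.0255 (without CSD 1) against 0.0203. The difference in log2 ratio of S100a8 to S100a9, 0.022 with all libraries, ran from -0.013 to 0.071 with 1 library left out. That of Lcn2 to both S100 genes, 0.098 with all libraries, ran from -0.025 to 0.21.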
